A study of Mus musculus with 12 samples.

Results

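The genes that encode the proteins of the cytosolic ribosome were examined in subcutaneous adipose tissue (SAT) and liver (LIV) of mice treated with LY2584702 (LY), an oral inhibitor of the kinase S6K1. Members were the probe sets whose platform symbol is Rpl or Rps followed by a number, with the usual letter endings, together with Rplp0, Rplp1 and Rpsa. Genes of the S6 kinases and pseudogenes were left out. The rule found 64 genes with 1 probe set each among 22206 probe sets tested, of which 40 encode proteins of the large subunit and 24 proteins of the small subunit. It used symbols only and no measured value. Genes of the family whose symbol no probe set carries, Rplp2 among them, were not analysed here.

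Expression was measured on 12 whole-transcript Affymetrix arrays, 1 per tissue of 6 male C57BL/6N mice. In the HFD + LY group, 3 mice (16, 18 and 20) were fed a high-fat diet with 60% of kcal from fat for 10 weeks and received LY by gavage at 25 mg/kg every 12 h over 12 weeks. In the HFD group, 3 mice (8, 11 and 14) had the same diet and the vehicle. All mice were 8 weeks old at the start, and the drug was given to the whole animal. The chow-fed mice of the study were not analysed here. SAT was the inguinal depot, as the study's methods describe it.

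Cytosolic ribosomal proteins are small, mostly basic proteins that coat the ribosomal RNA of both subunits, and growing cells make them in near-equal amounts. The small subunit protein S6, encoded by Rps6, is the classic substrate of S6K1, which acts downstream of the growth kinase complex mTORC1. Most ribosomal protein mRNAs begin with a C followed by a run of pyrimidines, the 5′ terminal oligopyrimidine (TOP) tract, through which mTORC1 controls their translation. Phosphorylation of S6 and translation do not appear on an expression array, which reads mRNA abundance alone.

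The annotated start of transcription was read for 51 of the 64 members from RefSeq (GRCm38.p6), to see which of them carry this tract. A start was counted as a TOP start when the base at the start is a C and opens a run of at least 5 pyrimidines. It was found in 12 of 51 members (23.5%), namely 7 of 31 large subunit genes and 5 of 20 small subunit genes, against 3.01% of 27025 genes in the same table. The windows below open 5 bases before the start and hold 25 bases in all, 5′ to 3′ on the gene's strand, with the tract in capitals. They show Rps6 and 4 other members with a tract, then Rpl39 and the 3 paralogs whose values set them apart from the family, none of which has a tract at the annotated start.
Rps6: cgggcCTCTTTTTCgtgacgcctcc
Rps10: cgcccCTTCCTTTCCagcctccgcc
Rps18: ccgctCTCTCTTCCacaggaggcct
Rpl15: gccttCTTCCTTTCCTCTggcggca
Rpl35: ctttcCTCTTTCTCTCgaaccaggc
Rpl39: gcctctagcgacttcttctaatcgc
Rpl39l: tttccggatttccggtggtcgccat
Rpl22l1: agcccgttctcttcccacggctgca
Rpl36al: gctcaggttcagttccgacttccgc
These windows lie at chr4:86857348-86857372 (minus strand) for Rps6, chr17:27635225-27635249 (minus) for Rps10, chr17:33955646-33955670 (minus) for Rps18, chr14:18270967-18270991 (minus) for Rpl15 and chr2:39005112-39005136 (minus) for Rpl35. The others lie at chrX:37085203-37085227 (minus) for Rpl39, chr16:10170223-10170247 (plus) for Rpl39l, chr3:28805503-28805527 (plus) for Rpl22l1 and chr12:69184048-69184072 (minus) for Rpl36al. The tract of Rps6 has 9 bases and that of Rpl15, a large subunit gene, 13. A start without a match says only that these letters do not stand at the annotated base. The members without an entry in that table were Rpl3, Rpl7, Rpl8, Rpl17, Rpl21, Rpl29, Rpl32, Rpl36, Rplp1, Rps4l, Rps14, Rps20 and Rps29.

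The arrays matched their tissue labels. The mean of 9 adipocyte genes ran from 12.92 to 13.14 on the log2 scale in SAT and from 8.18 to 8.46 in LIV, and that of 11 hepatocyte genes from 7.84 to 8.02 in SAT and from 13.46 to 13.50 in LIV. The SAT arrays of mouse 20 (HFD + LY) and mouse 11 (HFD) stood apart in skeletal muscle genes: the mean of 22 such genes was 12.34 and 12.64 there, 9.07 in mouse 14 and 7.82 to 7.96 in the other SAT arrays. The array medians over all probe sets ran from 8.16 to 8.28. Results that move without those mice are given with and without them. With 3 mice against 3, an exact permutation test cannot give a two-sided p under 0.1.

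The ribosomal protein genes were among the brightest probe sets of both tissues, a statement on array signal and not on molecules, since probe sets differ in response. The median member lay at the 97.6th to 98.0th percentile of the SAT arrays and at the 96.4th to 96.8th percentile of the LIV arrays. Their signal varied little between mice of a group: the median within-group SD was 0.062 on the log2 scale in SAT and 0.057 in LIV. It was below 0.2 in 61 of 64 members in SAT and in 62 of 64 in LIV. The exceptions in SAT were Rpl3l (SD 1.96), Rpl39l (SD 0.90) and Rpl39 (SD 0.22), and in LIV Rps4l (SD 0.29) and Rpl3l (SD 0.28). Rpl3l is the heart and skeletal muscle form of Rpl3, and Rpl39l is a paralog of Rpl39 known in the mouse for its expression in male germ cells.

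Rps6, the gene of the protein that S6K1 phosphorylates, had overlapping groups in both tissues. In SAT its log2 signal was 12.25, 12.31 and 12.25 in HFD + LY mice and 12.29, 12.24 and 12.32 in HFD mice. In LIV it was 12.11, 12.06 and 12.08 in HFD + LY mice and 12.12, 12.10 and 12.11 in HFD mice. All 12 arrays lay within a narrow band, the LIV arrays at its lower end. The difference was -0.011 in SAT (95% confidence interval -0.21 to 0.19, limma, unadjusted p = 0.90, adjusted p = 0.998) and -0.025 in LIV (interval -0.21 to 0.16, unadjusted p = 0.77, adjusted p = 0.96). These intervals leave room for changes of up to about 0.21 on the log2 scale in SAT.

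**Figure D1:**
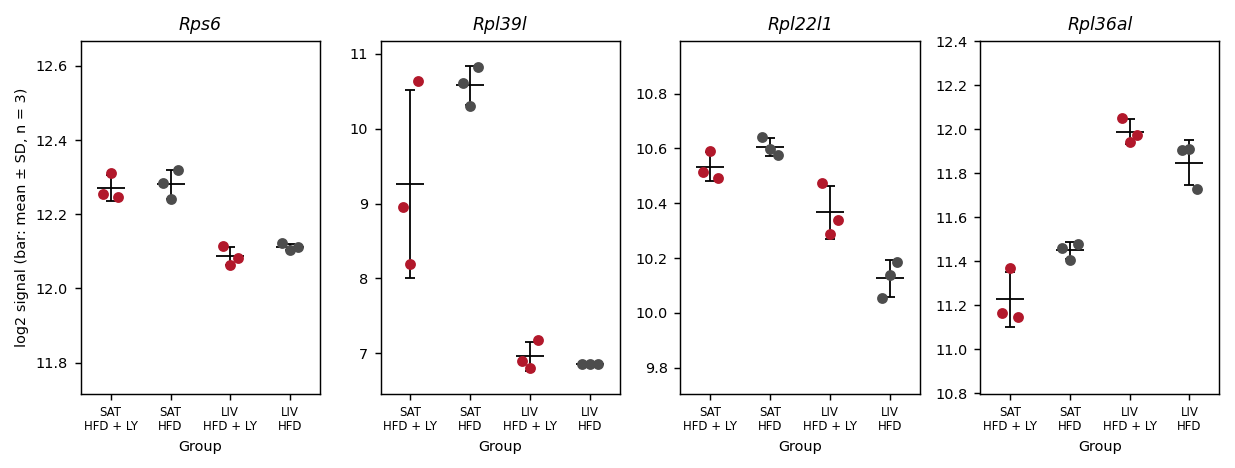
Log2 signal of Rps6 and of the 3 paralogs with the smallest drug or interaction p, by group (x axis), with HFD + LY in red and HFD in grey. Points are single arrays and bars the mean ± SD of 3 mice; the panels have different y axes. Rps6 overlapped between treatments in both tissues, Rpl39l was widely spread in SAT of HFD + LY mice (8.19 to 10.64), and Rpl22l1 and Rpl36al did not overlap in LIV.

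In SAT the differences between HFD + LY and HFD mice were small. At an unadjusted p under 0.05, 0 of 64 members were higher and 1 was lower in HFD + LY mice, where 1.86% of all probe sets were higher and 3.19% lower. The lower one was Rpl39l, and no member passed Benjamini-Hochberg adjustment over all probe sets in limma (smallest adjusted p = 0.96). Of the 64 differences, 57 were negative, with a median of -0.058 against -0.0048 over all probe sets. Other bright probe sets, with a mean above 12, had a median of -0.053, and 311 of 434 were negative. They are not matched to the members, whose mean SAT signals ran from 8.88 to 14.05. After median scaling within SAT, 50 of 64 members were negative, with a median of -0.049 against 0.0048 over all probe sets. After quantile normalization within SAT, 33 of 64 members were negative, with a median of -0.0050 against 0.010 over all probe sets. In bulk tissue, fewer cells of a type and less RNA per cell cannot be told apart.

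The SAT arrays of both groups did not overlap for 13 members, all lower in HFD + LY mice, while no member had its HFD + LY arrays all above. That is 20.3% of the members, against 5.48% of all probe sets with the HFD + LY arrays all below, 4.01% with them all above, and 15.4% below among the bright other probe sets. The 13 were 11 large subunit genes (Rpl6, Rpl7a, Rpl15, Rpl28, Rpl32, Rpl32l, Rpl35, Rpl36al, Rpl37a, Rpl38 and Rpl41) and 2 small subunit genes (Rps26 and Rps27l). Rpl41, which encodes the shortest ribosomal protein, had a log2 signal of 13.81, 13.92 and 14.11 in HFD + LY mice and 14.13, 14.12 and 14.20 in HFD mice. Its treated arrays were all lower, mouse 20 by a narrow margin, and the difference was -0.21 (limma, unadjusted p = 0.090, adjusted p = 0.99). Rps26, at the mRNA exit channel of the small subunit, had 10.69, 10.72 and 10.61 in HFD + LY mice and 10.85, 10.77 and 10.83 in HFD mice, a difference of -0.14 (unadjusted p = 0.14). Rpl6 differed by -0.12 and Rpl32l by -0.16. The mean of 8 genes of proliferating cells was also lower in every HFD + LY array, at 7.69 to 7.9995 against 8.09 to 8.78 in HFD mice, and its part in these values was not tested.

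The members with the smallest p among the higher ones in SAT were far from the threshold. Rpl21 was 11.65, 11.58 and 11.38 in HFD + LY mice and 11.37, 11.47 and 11.45 in HFD mice, so the groups overlapped and the difference was 0.10 (limma, unadjusted p = 0.35). Rps4x, the X-linked form of a small subunit protein, differed by 0.09, Rpl22, an RNA-binding protein of the large subunit, by 0.08, and Rpl14 by 0.06. Each of these 3 had overlapping groups. Rpl3, which reaches towards the peptidyl transferase centre, and Rpl23 differed by 0.06 and 0.04.

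**Figure D2:**
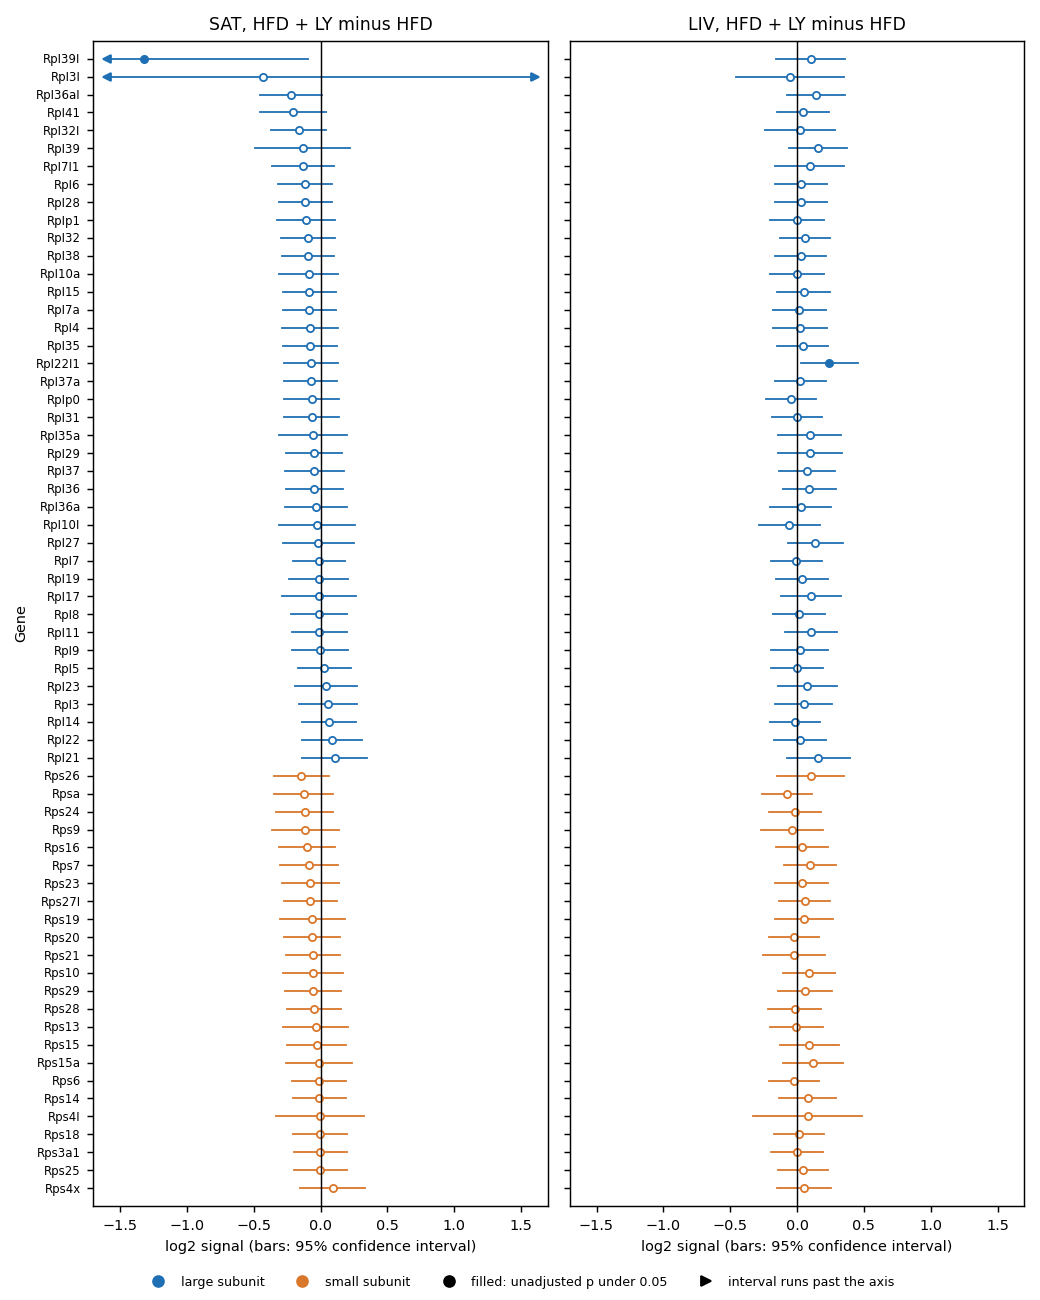
HFD + LY minus HFD in SAT (left) and LIV (right) for the 64 members, in log2 signal, with 95% confidence intervals from limma; large subunit genes are blue, small subunit genes orange, and filled points have an unadjusted p under 0.05. Nearly all intervals span 0: Rpl39l in SAT and Rpl22l1 in LIV are the 2 filled points. The leftward lean in SAT (57 of 64 negative) is 50 of 64 after median scaling and 33 of 64 after quantile normalization within SAT.

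The subunits were compared with each other in SAT. The median difference was -0.067 for the large subunit (34 of 40 negative), against -0.0050 after quantile normalization within the tissue. It was -0.055 for the small subunit (23 of 24 negative), and flipped to 0.00034 after quantile normalization. Taken array by array against the HFD mean of each gene, the median of the large subunit minus that of the small subunit was -0.026, -0.018 and 0.031 in HFD + LY mice and 0.011, 0.024 and -0.018 in HFD mice, and the groups overlapped. The median deviation of all 64 members was -0.046, -0.030 and -0.088 in HFD + LY mice and -0.021, -0.014 and 0.033 in HFD mice. The treated arrays were all lower, with mouse 20, 1 of the 2 mice high in muscle genes, lowest. Without mouse 20 the median difference was -0.026, with 40 of 64 members negative, and without mouse 14, the highest HFD array, it was -0.034, with 42 negative. Without mice 11 and 20 it was -0.046, with 44 negative.

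In LIV the differences were small as well. At an unadjusted p under 0.05, 1 of 64 members was higher and 0 were lower in HFD + LY mice, where 2.96% of all probe sets were higher and 3.94% lower, and no member passed adjustment in limma (smallest adjusted p = 0.71). Of the 64 differences, 47 were positive, with a median of 0.037 against -0.0066 over all probe sets and 0.017 over the bright other probe sets. Positive were also 257 of 434 bright other probe sets and 10690 of all 22206. The median was 0.034 for the large subunit (32 of 40 positive) and 0.040 for the small subunit (15 of 24 positive). The median over all members stayed positive after median scaling within the tissue (0.068, against 0.024 over all probe sets). The same held after quantile normalization (0.026, against -0.0040). The median deviation of all members on each array was 0.044, 0.034 and 0.026 in HFD + LY mice and -0.017, 0.018 and 0.0027 in HFD mice, all treated arrays being higher. Without mouse 8 the median difference was 0.019, with 41 of 64 members positive. Marker means that moved with the groups were those of 8 macrophage genes (8.16 to 8.42 in HFD + LY livers, 8.48 to 8.64 in HFD livers), of 8 genes of proliferating cells (7.43 to 7.44 in HFD + LY, 7.55 to 7.71 in HFD) and of 9 adipocyte genes (8.18 to 8.25 in HFD + LY, 8.39 to 8.46 in HFD), all lower in HFD + LY, and of 11 hepatocyte genes (13.482 to 13.5003 in HFD + LY, 13.464 to 13.4765 in HFD), higher in HFD + LY without overlap. Within the hepatocyte list, 6 genes were higher and 5 lower, with a median difference of 0.030. Lower were 7 of 8 macrophage genes, 7 of 9 adipocyte genes and 8 of 8 genes of proliferating cells. The part of these lists in the members' values was not tested.

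The LIV arrays did not overlap for 9 members. The HFD + LY arrays were all above in 7 (Rpl11, Rpl22l1, Rpl32, Rpl36al, Rps7, Rps10 and Rps25), that is 10.9% against 5.61% of all probe sets, and all below in 2 (Rplp0 and Rpsa), that is 3.12% against 6.89%. Among the bright other probe sets 10.6% were all above and 8.06% all below, so the share of members all above was near theirs. The mean LIV signals of the members ran from 6.91 to 13.61, so that set is not matched to them in brightness. Rpl22l1, the paralog that can take the place of Rpl22, had a log2 signal of 10.47, 10.29 and 10.34 in HFD + LY livers and 10.05, 10.14 and 10.19 in HFD livers. All treated livers were higher, by 0.24 (limma, interval 0.027 to 0.46, unadjusted p = 0.032, adjusted p = 0.71). Leaving out mouse 8, 11, 16 or 20 took its p past the threshold (0.051 to 0.11). Its partner Rpl22 was 11.97, 11.94 and 11.96 in HFD + LY livers and 11.88, 12.00 and 11.93 in HFD livers, a difference of 0.02 with overlapping groups.

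Among the other members named for LIV, Rpl39 differed by 0.15 (limma, unadjusted p = 0.14), Rpl21 by 0.16 and Rpl27 by 0.13, with overlapping groups. Rpl11, which with Rpl5 can bind the p53 regulator Mdm2, was 11.65, 11.69 and 11.67 in HFD + LY livers and 11.55, 11.51 and 11.63 in HFD livers, so the treated livers were higher by 0.10 without passing the test (unadjusted p = 0.25). Rplp0, the stalk protein often used as a reference gene, was 10.54, 10.55 and 10.54 in HFD + LY livers and 10.60, 10.60 and 10.58 in HFD livers. The treated livers were all lower, and the difference of -0.048 did not pass limma's test (unadjusted p = 0.57). Rpsa, also known as the laminin receptor, was 13.04, 12.97 and 12.99 in HFD + LY livers and 13.07, 13.08 and 13.09 in HFD livers, a difference of -0.077 (unadjusted p = 0.38). Rplp1, the other stalk protein measured, overlapped in LIV (-0.0025) and in SAT (-0.11).

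**Figure D3:**
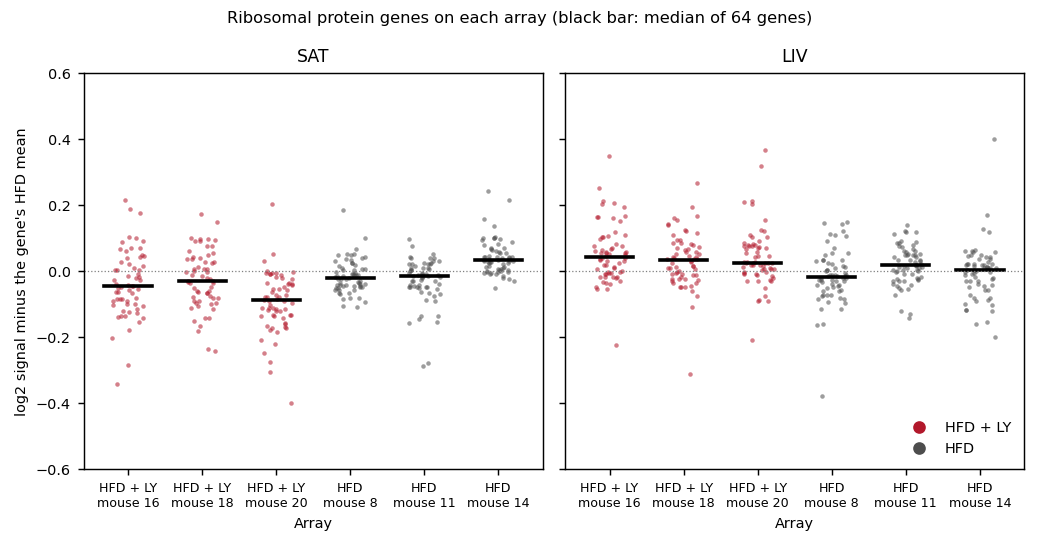
Deviation of each member from its mean over the HFD mice of the tissue, in log2 signal (y axis), on each array (x axis), with HFD + LY in red, HFD in grey and the median of 64 members as a black bar. Rpl3l on all SAT arrays and Rpl39l on the SAT arrays of mice 16 and 18 lie beyond the axis limit of 0.6. The bars run from -0.088 to 0.033 in SAT and from -0.017 to 0.044 in LIV. In SAT the median difference was -0.049 after median scaling and nearly gone after quantile normalization within the tissue (-0.0050).

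Rpl39l had the largest drug difference of the family in SAT. Its log2 signal was 8.95, 8.19 and 10.64 in HFD + LY mice and 10.62, 10.31 and 10.83 in HFD mice. Mice 16 and 18 were low and mouse 20 was within the HFD range, so the groups overlapped. The difference was -1.32 (limma, interval -2.55 to -0.093, unadjusted p = 0.038, adjusted p = 0.96). Without mouse 20 it was -2.01 (adjusted p = 0.11), and without mice 11 and 20, both high in muscle genes, it was -2.15 and passed adjustment (adjusted p = 0.0098), as did 573 probe sets in all in that fit. At the same -1.32 the methods' t-test did not call it (unadjusted p = 0.15). The study's methods name a t-test for comparisons of 2 groups in general, not for the arrays in particular, and it was run here as an alternative. Without mouse 18 it was -0.79 (unadjusted p = 0.13), and it lost its call without mouse 8, 14 or 16 as well (unadjusted p = 0.074 to 0.10). In LIV, Rpl39l was dim, between 6.80 and 7.18 and at the 21.2nd percentile on average, with a difference of 0.10.

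The Rpl39l values in SAT were set beside the skeletal muscle and the proliferating cell genes. The mean of 22 skeletal muscle genes was 7.82 (mouse 16), 7.89 (mouse 18) and 12.34 (mouse 20) in HFD + LY mice and 7.96 (mouse 8), 12.64 (mouse 11) and 9.07 (mouse 14) in HFD mice. Rpl39l was high in mouse 8, whose muscle genes were at the low level. The mean of 8 genes of proliferating cells was 7.69, 7.83 and 7.9995 in HFD + LY mice and 8.78, 8.09 and 8.45 in HFD mice, and all 8 were lower in HFD + LY at an unadjusted p under 0.05 (median difference -0.49, none passing adjustment). Mice 16 and 18, where Rpl39l was low, had the lowest means of both lists. The part of either list in the Rpl39l difference was not tested. Rpl39 itself, which lines the exit tunnel of the large subunit, was 9.40, 9.19 and 8.89 in HFD + LY mice and 9.21, 9.16 and 9.51 in HFD mice and overlapped.

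Rpl3l followed the muscle genes from mouse to mouse. It was 7.67, 7.501 and 10.81 in HFD + LY mice and 7.79, 11.47 and 8.04 in HFD mice, high in mice 20 and 11 and low in the other 4. The groups overlapped and the difference was -0.43 (limma, interval -3.08 to 2.21, unadjusted p = 0.71). In LIV, where the muscle gene mean was 7.58 to 7.74, Rpl3l lay between 7.36 and 8.04. Rpl3, the general form, was 12.53, 12.54 and 12.43 in HFD + LY mice and 12.50, 12.36 and 12.48 in HFD mice in SAT, without the swings of its paralog.

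**Figure D4:**
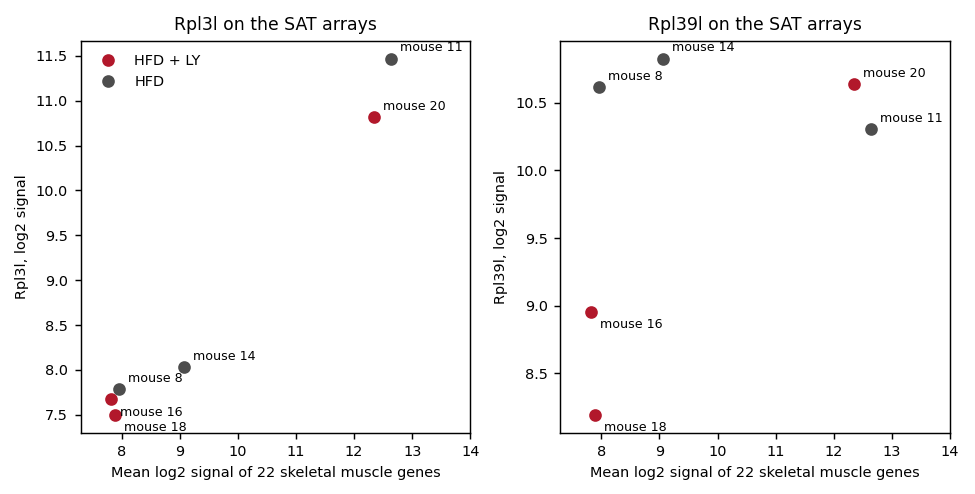
Log2 signal of Rpl3l (left) and Rpl39l (right) on the 6 SAT arrays (y axis) against the mean log2 signal of 22 skeletal muscle genes (x axis), with HFD + LY in red and HFD in grey. Rpl3l is above 10.8 in mice 11 and 20 and below 8.1 in the others, while Rpl39l is above 10.3 in all mice but 16 and 18.

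The remaining paralogs showed smaller values. Rpl36al, a retrogene of Rpl36a, had a log2 signal of 11.17, 11.37 and 11.15 in HFD + LY SAT and 11.46, 11.41 and 11.48 in HFD SAT, lower in all treated mice (-0.22, limma, unadjusted p = 0.056, adjusted p = 0.98). In LIV it was 12.05, 11.94 and 11.97 in HFD + LY mice and 11.91, 11.91 and 11.73 in HFD mice, higher in all treated mice (0.14, unadjusted p = 0.17). Rpl36a differed by -0.033 in SAT and 0.028 in LIV and overlapped in both. Rps27l, a paralog of Rps27 and a target of p53, was 12.51, 12.50 and 12.44 in HFD + LY SAT and 12.54, 12.59 and 12.56 in HFD SAT, a difference of -0.077 (unadjusted p = 0.40). Rpl7l1, a relative of Rpl7 found in assembling large subunits, differed by -0.13 in SAT and 0.09 in LIV. Rps4l, and Rpl10l, known from mouse male germ cells, had overlapping groups in both tissues.

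The drug difference was compared between the tissues as an interaction, SAT difference minus LIV difference, over all 12 arrays. At an unadjusted p under 0.05, 0 members had a higher and 3 a lower SAT difference, where 2.77% of all probe sets were higher and 3.44% lower, and none passed adjustment (limma, smallest adjusted p = 0.76). The 3 were Rpl36al (-0.36, unadjusted p = 0.015), Rpl22l1 (-0.31, unadjusted p = 0.020) and Rpl39l (-1.42, unadjusted p = 0.038), all paralogs of other members. With the mouse as a block, their unadjusted p was 0.035, 0.046 and 0.013. Rpl41 had -0.25 (unadjusted p = 0.071), and the positive values with the smallest p, in Rpl14, Rpl22, Rpl5 and Rps4x, were 0.03 to 0.07. The median interaction over the members was -0.10, and -0.079 over the bright other probe sets. Without mice 11 and 20, Rpl39l passed adjustment (-2.14, adjusted p = 0.046), as did 37 probe sets in all.

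The levels differed between the tissues far more than between the treatments. In limma at an adjusted p under 0.05, 45 members were higher in SAT than in LIV, 5 were lower and 14 did not pass, where 29.2% of all probe sets were higher and 30.7% lower. The median of SAT minus LIV was 0.30, against -0.048 over all probe sets and 0.095 over the bright other probe sets. After median scaling it was 0.23, against -0.12 over all probe sets. The large subunit had 27 higher and 4 lower of 40 (median 0.28), and the small subunit 18 higher and 1 lower of 24 (median 0.38). A higher signal at equal total RNA per array is a share of the tissue's mRNA, not a number of ribosomes.

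Rps19, a small subunit gene mutated in human Diamond-Blackfan anaemia, was among the members higher in SAT. Its log2 signal was 11.62 ± 0.10, from 11.49 to 11.75, in SAT and 10.74 ± 0.08, from 10.63 to 10.83, in LIV (mean ± SD of 6 arrays each). The tissues did not overlap, and the difference of 0.87 is a 1.83-fold higher signal (limma, adjusted p = 1.47e-07). Rps9 was 0.80 higher, between 12.02 and 12.39 in SAT and between 11.30 and 11.57 in LIV. Rpl39 was 0.87 higher, between 8.89 and 9.51 in SAT and between 8.18 and 8.49 in LIV. Rps4l was 0.76 higher. The brightest members, Rpl41, Rpl7, Rpl37a, Rpl31 and Rplp1, were higher in SAT by 0.27 to 0.52, each with an adjusted p of 0.00055 or less.

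The paralogs Rpl39l and Rpl3l stood highest in the order, followed by Rps19, Rpl39 and Rps9, which are not paralogs. Most members at the low end were paralogs. Rpl39l was 3.01 higher in SAT (interval 2.35 to 3.68, 8.08-fold, limma, adjusted p = 2.19e-06), with every SAT array, 8.19 to 10.83, above every LIV array. Rpl3l was 1.23 higher without passing (adjusted p = 0.12), since it was high in 2 SAT arrays only. The 5 members lower in SAT were Rpl36al (-0.58), Rps27l (-0.49), Rpl35a (-0.40), Rpl10l (-0.39) and Rpl7l1 (-0.31), of which 4 are paralogs. Rpl35a, a large subunit gene also known from Diamond-Blackfan anaemia in humans, was 11.67 to 11.98 in SAT and 12.15 to 12.45 in LIV. Rps27l was 12.44 to 12.59 in SAT and 12.94 to 13.06 in LIV, without overlap. Rps6 was 0.18 higher in SAT (adjusted p = 0.010), a difference that did not pass after median scaling (0.11, adjusted p = 0.093) or without mouse 18 (adjusted p = 0.052).

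**Figure D5:**
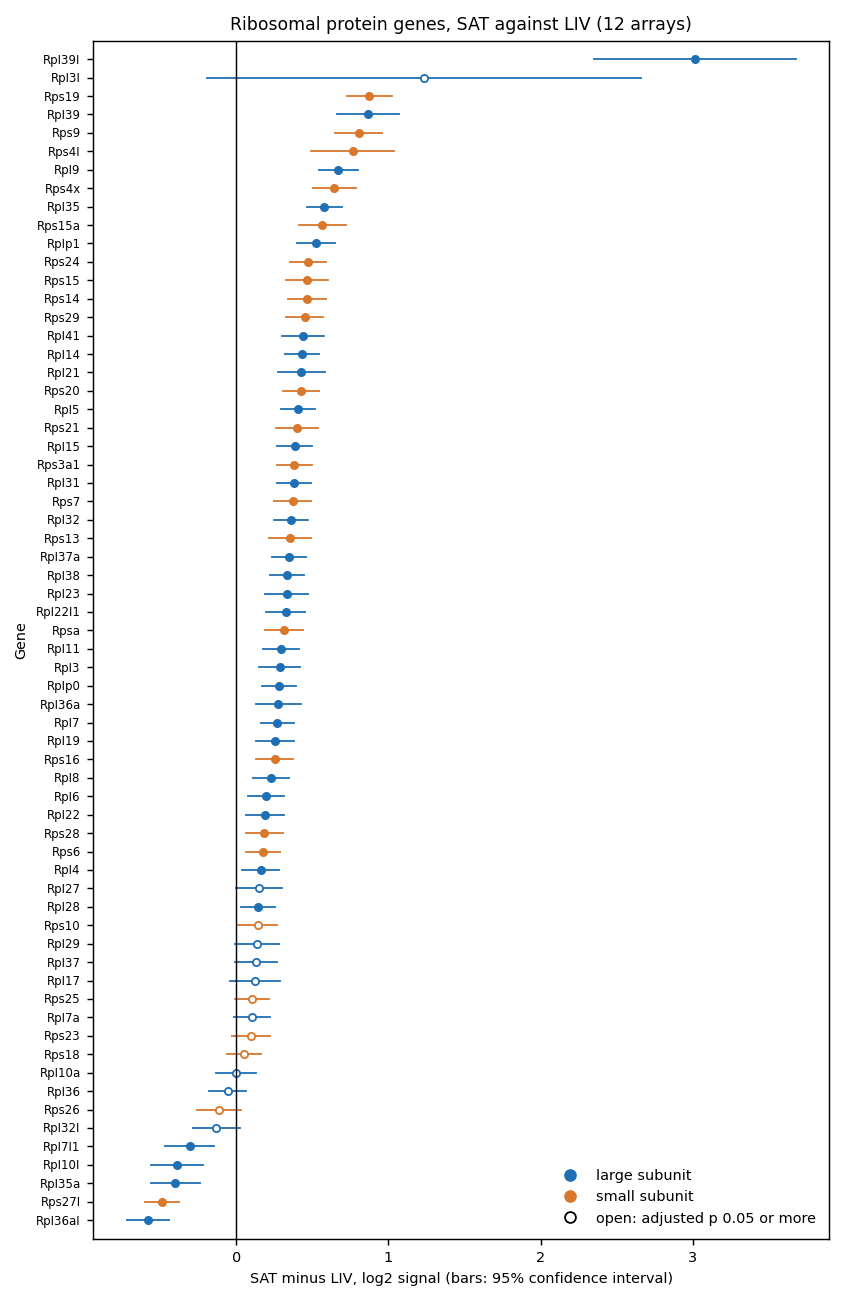
SAT minus LIV for the 64 members in log2 signal (x axis), sorted, with 95% confidence intervals from limma over 12 arrays; large subunit genes are blue and small subunit genes orange, and open points did not pass an adjusted p of 0.05. Most members lie between 0 and 0.9, Rpl39l lies at 3.01, and the 5 filled points below 0 are Rpl36al, Rps27l, Rpl35a, Rpl10l and Rpl7l1.

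Members were also set side by side by their annotated start. A member without a match at the annotated base may still have a TOP mRNA, so this split cannot separate TOP mRNAs from others. The 12 members with a TOP start had a median of -0.058 in SAT and 0.028 in LIV, and the 39 members without it a median of -0.073 in SAT and 0.033 in LIV. SAT minus LIV had a median of 0.25 in members with a TOP start and 0.29 in those without. The ranges of the drug difference in members with a TOP start were -0.16 to 0.06 in SAT and -0.025 to 0.12 in LIV. Among 13 other genes known for TOP mRNAs, mostly translation factors, 0 were higher or lower at an unadjusted p under 0.05 in either tissue. Over all probe sets 1.86% were higher and 3.19% lower in SAT, and 2.96% and 3.94% in LIV, so a count of 0 in so short a list is near those shares. The medians of the 13 were -0.053 in SAT and -0.0084 in LIV. Eef1g, a subunit of elongation factor 1, came nearest, with a difference of -0.22 in SAT (limma, unadjusted p = 0.059).

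The genes of the S6 kinases and of the path from mTORC1 to S6 were counted in the same way. Of 27 listed, 21 were measured, and the gene of S6K1 itself was not analysed here. In SAT, 0 were higher and 1 was lower at an unadjusted p under 0.05, near the 3.19% of all probe sets: Rps6kc1, a relative of the S6 kinases, was 8.69, 8.59 and 8.81 in HFD + LY mice and 8.96, 9.13 and 9.04 in HFD mice (-0.35, limma, unadjusted p = 0.0092, adjusted p = 0.93). In LIV, 0 were higher and 1 was lower, near the 3.94% of all probe sets: Rps6kl1 was 7.02, 6.999 and 6.71 in HFD + LY mice and 7.16, 7.36 and 7.33 in HFD mice (-0.38, unadjusted p = 0.010, adjusted p = 0.69). Rps6kb2, the gene of the kinase S6K2, differed by 0.06 in SAT and -0.07 in LIV. Of 22 measured genes of ribosome assembly, 3 were lower in SAT (Wdr12, Rrp12 and Nop16, -0.31 to -0.26), against 3.19% of all probe sets, and 1 was higher in LIV (Ltv1, 0.25), against 2.96%, none past adjustment. Fau, which encodes a small subunit protein outside the symbol rule, differed by -0.071 in SAT and 0.046 in LIV.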

How the data were processed

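The authors hybridised 100 ng of RNA per sample and deposited log2 signals made with RMA (background correction, quantile normalization, summary per probe set); the labels name RMA and limma without a version. Gene symbols came from GEO's platform annotation: 19572 of the 22206 probe sets have 1 symbol, 0 several and 2634 none. The 6640 control rows were left out and no dim filter was applied. HFD + LY was compared with HFD per tissue in limma 3.58.1 (R 4.3.3; 4 residual degrees of freedom, prior constant over intensity), and p-values were adjusted by Benjamini-Hochberg across the 22206 probe sets; the interaction and SAT minus LIV used 4 group means over 12 arrays. The script was tested on simulated data. The labels give the same animal numbers in both tissues, so arrays are paired by mouse; deviations of paired arrays correlated by -0.067 to 0.21 over genes, and the fit with the mouse as a block was an alternative. Members and lists were chosen with earlier results of these data known. Named were Rps6, Rpsa, the stalk proteins, 8 paralogs, the members with the smallest p in each comparison and direction, and the brightest, the dimmest and those with the largest tissue differences; others are named where a count of arrays without overlap lists them. Ribosomal protein genes have many processed pseudogenes and near copies, so probe sets may read more than 1 of them; this was not tested. For arrays, their number limits the precision. Figures were drawn with matplotlib 3.10.9.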

Additional observations from a re-analysis of the deposited data

Results flagged for a closer look

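The difference between HFD + LY and HFD differed between the tissues at an unadjusted p under 0.05 in 3 of 64 members, none past adjustment in limma. All 3 had a lower SAT difference. Over all probe sets 3.44% were lower and 2.77% higher at that threshold, so the count is near the share over all probe sets. Rpl39l had an interaction (SAT difference minus LIV difference) of -1.42 (unadjusted p = 0.038, adjusted p = 0.79), with 2 of 3 treated SAT arrays below all HFD arrays; leaving out 1 mouse at a time, it ranged from -2.00 to -0.97 and passed the threshold only without mouse 20. Rpl36al had an interaction of -0.36 (unadjusted p = 0.015, adjusted p = 0.76), lower in 3 of 3 treated SAT arrays and higher in 3 of 3 treated LIV arrays. Rpl22l1 had an interaction of -0.31 (unadjusted p = 0.020, adjusted p = 0.78), higher in 3 of 3 treated LIV arrays, with overlapping SAT arrays. Rpl36al lost its call without mouse 14 (unadjusted p = 0.078) or mouse 16 (unadjusted p = 0.080), and Rpl22l1 without mouse 8 (unadjusted p = 0.089) or mouse 16 (unadjusted p = 0.096), or without mice 11 and 20 together (unadjusted p = 0.072). Groups of 3 arrays were too small to look for single outlying arrays.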

How the results depend on the processing

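The median differences kept their direction under the alternatives tried, apart from the small subunit in SAT. Quantile normalization within the tissue brought the SAT medians to -0.0050 (large subunit) and 0.00034 (small subunit). Median scaling brought the median over the members to -0.049 in SAT, 0.068 in LIV and 0.23 for SAT minus LIV. The medians over all probe sets were then 0.0048, 0.024 and -0.12. Members lower in SAT (1) numbered 3 in 1 fit of 12 arrays (6.34% of all probe sets passed in either direction), 3 with an intensity trend (5.30%), 0 after quantile normalization, 4 with array weights (1 higher there; 21.4%), 10 in the methods' t-test (4.81%; Rpl39l not among them), 3 without mice 11 and 20 (18.2%) and 0 without paralogs; leaving out 1 mouse gave 0 to 2. Members higher in LIV (1) numbered 0 after quantile normalization, 4 in the methods' t-test (2 lower there; 6.71%), 0 without paralogs and 0 to 1 with 1 mouse left out. Interactions with a lower SAT difference (3) numbered 5 with an intensity trend (6.53%), 5 with array weights (14.5%), 0 without paralogs and 0 to 4 with 1 mouse left out. Members lower in SAT than in LIV (5) numbered 1 without paralogs. The paralogs left out in these counts were the 8 named ones, and Rpl32l was kept among the other members. With the mouse as a replicate block, 49 of 64 members differed between the tissues against 50: Rpl28 no longer passed (adjusted p = 0.069 against 0.031); no other call changed, and the 3 interactions kept theirs. For Rpl39l in SAT the adjusted p was 0.041 with array weights, where 355 probe sets passed adjustment, and 0.99 in the methods' t-test. With 3 mice a group, a member's 95% interval in limma reached about 0.21 to either side in SAT and 0.20 in LIV (medians). For a member with an interval of that width, smaller changes could not pass the unadjusted threshold in that fit. The methods' t-test, which uses the spread of each gene alone, called 10 members lower in SAT.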

Other observations

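The proteins of the mitochondrial ribosome, are encoded by another set of nuclear genes, of which 76 were measured. In limma, 0 had a higher and 6 a lower signal under LY in SAT (unadjusted p under 0.05; median difference -0.063), where 1.86% of all probe sets were higher and 3.19% lower. In LIV, 2 had a higher and 0 a lower signal (median 0.062), where 2.96% of all probe sets were higher and 3.94% lower. None passed adjustment, and the other normalizations were not run for this list. Between the tissues their median difference, SAT minus LIV, was -0.010, and 17 genes were higher and 27 lower past adjustment, against 29.2% and 30.7% of all probe sets. Mrps22, chosen after its values were seen, passed the unadjusted threshold in both tissues: it was 7.85, 8.13 and 7.74 in HFD + LY SAT and 8.39, 8.11 and 8.15 in HFD SAT (-0.31, unadjusted p = 0.049), and 9.01, 8.47 and 8.47 in HFD + LY livers and 8.35, 8.19 and 7.99 in HFD livers (0.48, unadjusted p = 0.018). The SAT groups overlapped and the LIV groups did not.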
